A study of Mus musculus with 2 samples.

Results

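The visceral endoderm is the epithelium that covers the early mouse embryo. At the egg cylinder stage it does work that the liver, the intestine and the kidney take over later. It secretes carriers of retinol and thyroid hormone, alpha-fetoprotein and apolipoproteins that leave the cell on lipid particles, and its apical surface takes up maternal proteins through cubilin, a large receptor that is held in the membrane by amnionless. HNF4A, a nuclear receptor, is required in the visceral endoderm for many of these secreted products. Described here are 10 genes of this programme: the plasma carriers *Ttr*, *Rbp4* and *Afp*, the apolipoproteins *Apoa1*, *Apoa4*, *Apob* and *Apoe*, the uptake receptor genes *Cubn* and *Amn*, and the regulator *Hnf4a*. They were chosen by name, as known visceral endoderm genes of these roles, and their probes were found through the RefSeq accession printed with each spot. All 10 were measured in both embryos, among 14771 genes in all, with 12 probes in 39 spots.

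The arrays compared 1 homozygous *Dullard* embryo (*Dullard*-/-) with 1 heterozygous embryo (*Dullard*+/-). Both were whole C57BL/6 mouse embryos at embryonic day 7.5 (E7.5), and each was hybridised to 1 single-colour Agilent whole-genome array of the same slide. *Dullard* (*Ctdnep1*) encodes a serine/threonine phosphatase of the nuclear envelope. The study made a null allele and a *LacZ* allele and called homozygous embryos of either *Dullard*-/-. The sources used here do not say which of them was on the array. The alleles were made in stem cells of another or a mixed strain, and the chimeras were crossed with C57BL/6 mice. How much of the other strains remained in these embryos is not known here. No wild-type array was analysed here, so every difference below is between an embryo without an intact *Dullard* allele and an embryo that already carried 1 mutant allele. Since each genotype was measured in 1 embryo, no replicate check or p-value could be had, and each difference describes these embryos. The RNA came from whole embryos, so fewer visceral endoderm cells and less RNA per cell cannot be told apart.

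Signals are background-subtracted spot intensities. Levels are given as the signal divided by the 75th percentile of the array, a value of 264 in *Dullard*-/- and 286 in *Dullard*+/-. Among 43020 non-control spots, 29310 were well above background in the *Dullard*-/- embryo, against 31242 in the *Dullard*+/- embryo, and no spot was saturated. The error after a log2 fold change (*Dullard*-/- over *Dullard*+/-) comes from probes of similar brightness that are spotted repeatedly: it is their SD between spots, over the square root of how many probes the gene has. It leaves out the spread between embryos. Different probes of the same gene differed more, with a pooled SD of 0.29 over 3747 genes and of 0.16 over the 983 such genes in the brightest 25%. Precision is limited by the number of arrays. The probe of *Dullard* itself read 144 in the *Dullard*-/- embryo, against 672 in the *Dullard*+/- embryo, a 4.31-fold lower level in *Dullard*-/- (log2 fold change -2.11 ± 0.06). Where this probe lies in the transcript is not known here.

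*Hnf4a* is both one of the 10 genes and a known regulator of others, so the sequences before their start sites are shown for those that hold an HNF4-type motif. A window of 250 bases before to 50 bases after the start site was found in the RefSeq promoter table (build GRCm38.p6) for 9 of the 10 genes, in 13 windows, since some genes have several start sites. The letters CAAAGNNCA, an HNF4-type motif, were searched on both strands and lay in 4 of these 13 windows, those of *Afp*, *Apob*, *Apoa4* and *Cubn*, and in 6.36% of all 32851 windows. The letters TATAAA lay in windows of 4 of the genes (*Afp*, *Apob*, *Apoe* and *Rbp4*) and in 13.6% of all windows. The motifs and the sequences printed were chosen after matches had been seen. Capitals mark the matches in the 250 bases before the start site, written 5′ to 3′ on the strand of the gene.
Afp (chr5:90490464-90490713, plus strand): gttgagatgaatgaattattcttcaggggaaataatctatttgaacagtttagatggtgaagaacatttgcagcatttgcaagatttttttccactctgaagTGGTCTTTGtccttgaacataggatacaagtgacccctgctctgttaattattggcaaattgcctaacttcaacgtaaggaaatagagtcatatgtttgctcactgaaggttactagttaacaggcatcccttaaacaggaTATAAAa
Apob (chr12:7977427-7977676, plus strand): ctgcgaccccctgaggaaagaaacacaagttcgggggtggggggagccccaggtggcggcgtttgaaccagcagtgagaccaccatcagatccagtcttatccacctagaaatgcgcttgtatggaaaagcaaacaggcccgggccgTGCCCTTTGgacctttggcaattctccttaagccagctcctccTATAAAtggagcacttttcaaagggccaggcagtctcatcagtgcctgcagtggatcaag
Apoa4 (chr9:46240594-46240843, plus strand): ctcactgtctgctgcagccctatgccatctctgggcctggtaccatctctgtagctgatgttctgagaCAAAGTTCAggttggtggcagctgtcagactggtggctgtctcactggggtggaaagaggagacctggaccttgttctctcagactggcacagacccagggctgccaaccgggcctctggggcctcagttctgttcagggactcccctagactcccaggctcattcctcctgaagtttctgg
Cubn (chr2:13491877-13492126, minus strand): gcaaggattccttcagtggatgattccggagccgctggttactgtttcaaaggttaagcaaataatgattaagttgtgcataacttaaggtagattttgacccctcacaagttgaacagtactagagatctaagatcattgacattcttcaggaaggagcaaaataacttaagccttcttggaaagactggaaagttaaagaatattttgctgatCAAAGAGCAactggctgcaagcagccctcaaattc
In *Afp* the HNF4-type match TGGTCTTTG, read on the other strand, starts at position -148 from the start site and TATAAA at -7. The HNF4-type match of *Apob* (TGCCCTTTG, other strand) starts at -103 and its TATAAA at -60. That of *Apoa4* (CAAAGTTCA) starts at -182 and that of *Cubn* (CAAAGAGCA) at -35. None of these matches overlaps another. A match says only that these letters are present, and factor binding was not measured.

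The secretory and uptake genes were close to equal in the *Dullard*-/- and the *Dullard*+/- embryo. Averaged over probes, *Afp* was the highest, 1.20-fold higher in the *Dullard*-/- embryo, and *Cubn* the lowest, 1.27-fold lower, so all 10 lay within 0.61 of each other on the log2 scale. In all, 4 genes were higher and 6 lower (1 and 9 without scaling between the arrays), and 5 of the 10 were within 0.1 of 0. The median log2 fold change was -0.02, beside 0.01 over all 14771 genes. None of the 10 was past 1.5-fold in either direction, against 3.92% of all genes on the higher side and 3.37% on the lower side (7.29% in either direction). Large folds were mostly a matter of dim genes on these arrays. Apart from *Hnf4a*, whose probe is dimmer, the 10 are among the brightest 25% of genes, where 0.704% were past 1.5-fold on the higher side and 0.162% on the lower (0.867% in either direction). A count of 0 in 10 is near that background. The SD of the 10 log2 fold changes was 0.19, beside 0.17 over the brightest 25% of genes.

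**Figure D1:**
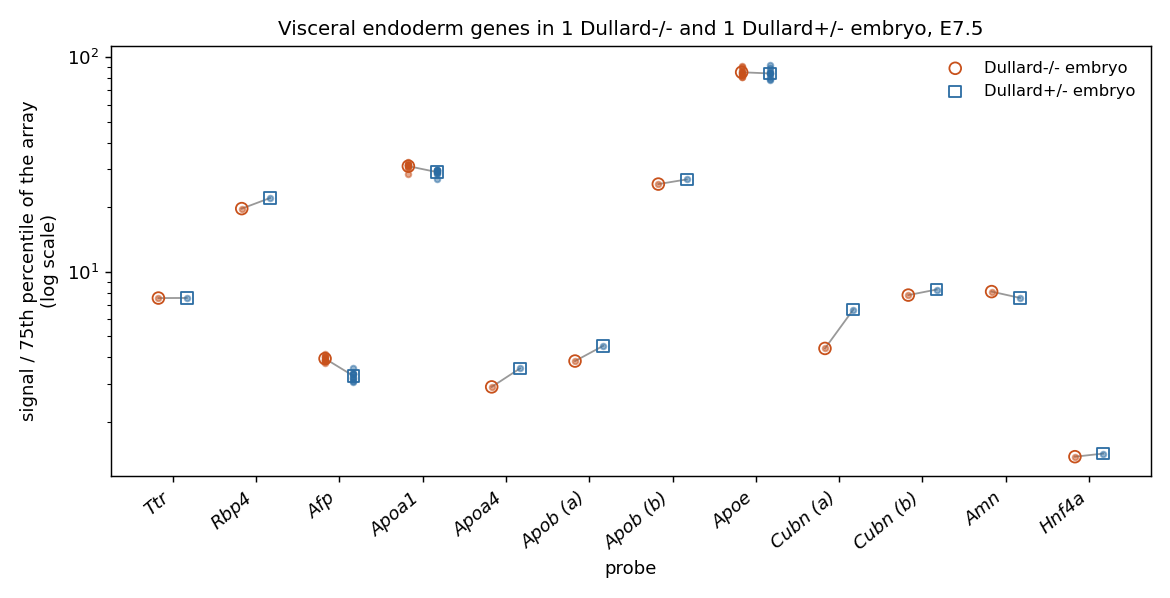
Level of each probe of the 10 genes (signal over the 75th percentile of the array, log scale) in the *Dullard*-/- embryo (circles) and the *Dullard*+/- embryo (squares), with each spot as a small dot. Lines join the same probe. *Apoe* lies near 85 in both embryos and *Hnf4a* near 1.4, and the steepest line is that of the *Cubn* probe with 4.40 in the *Dullard*-/- embryo, against 6.67 in the *Dullard*+/- embryo.

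Among the plasma carriers, 1 gene was higher, 1 was lower and 1 differed by less than the error of the spots. *Ttr* (NM_013697) encodes transthyretin, the carrier of thyroid hormone, which also holds the retinol-binding protein in plasma. Its signal was 1996 in the *Dullard*-/- embryo, against 2161 in the *Dullard*+/- embryo, and the level after scaling was 7.55 in *Dullard*-/- and 7.56 in *Dullard*+/-. The log2 fold change of -0.0017 ± 0.05 is the smallest of the 10, and its sign turned with scaling to the median of each array (0.04). *Rbp4* (NM_001159487), the retinol carrier that travels with transthyretin, had a level of 19.7 in the *Dullard*-/- embryo, against 22.1 in the *Dullard*+/- embryo. It was 1.12-fold lower (-0.16 ± 0.04). The difference is larger than the error of the spots and about as large as the spread between probes of bright genes, and 9.18% of the brightest 25% of genes were at least as far below 0. The carrier and its plasma partner thus had different values, *Rbp4* below 0 and *Ttr* at 0.

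*Afp* (NM_007423), alpha-fetoprotein, is the main fetal plasma protein and a long-used marker of the visceral endoderm. It is spotted 10 times on each array, which allows every spot to be compared. Its level ran over the 10 spots from 3.78 through a median of 3.91 to 4.16 in the *Dullard*-/- embryo, and from 3.08 through 3.30 to 3.57 in the *Dullard*+/- embryo. The spots of the embryos did not overlap. The log2 fold change was 0.27 ± 0.05, with each of the 10 spots higher in the *Dullard*-/- embryo by 0.21 to 0.39. Such separation was common: of 282 probes spotted 10 times, 18.8% had every *Dullard*-/- spot above every *Dullard*+/- spot and 13.1% had every one below. In size, 6.53% of the brightest 25% of genes were at least as far above 0 as *Afp*. *Alb*, which lies next to *Afp* on the chromosome and encodes albumin, the plasma protein of the later liver, was not well above background in either embryo.

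**Figure D2:**
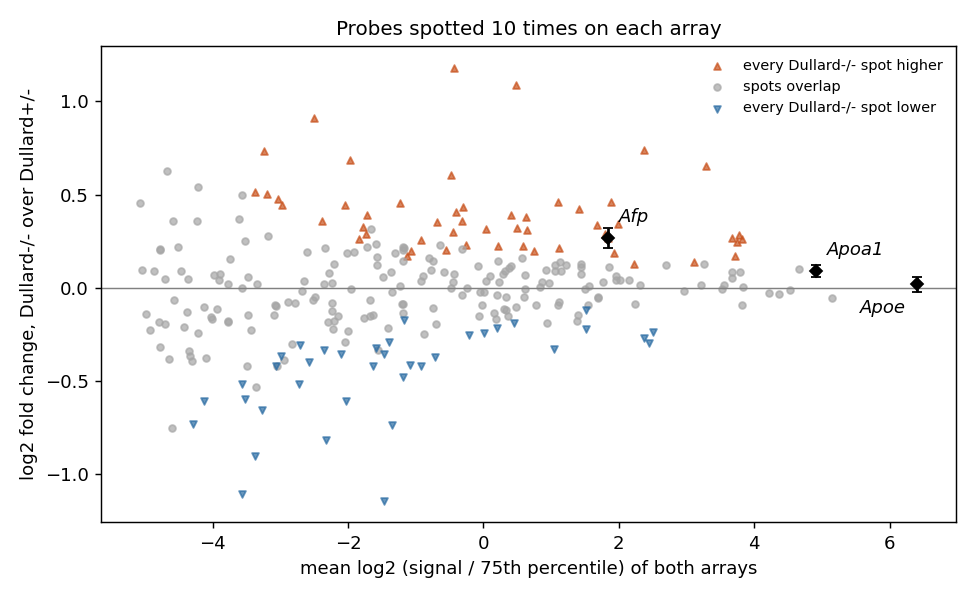
The 282 probes spotted 10 times on each array, by their log2 fold change on the vertical axis (*Dullard*-/- over *Dullard*+/-) and their mean log2 level in both embryos on the horizontal axis. Upward triangles have every *Dullard*-/- spot higher, downward triangles every one lower and grey circles overlap. Black diamonds with the SD between spots are *Afp* at 0.27, *Apoa1* at 0.09 and *Apoe* at 0.02.

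The apolipoproteins, which coat lipid particles, split into a pair without a fall and a pair that was lower. *Apoa1* (NM_009692), the main protein of high-density lipoprotein, had levels over its 10 spots of 28.5 to 32.3 (median 31.3) in the *Dullard*-/- embryo and 27.2 to 29.9 (median 29.3) in the *Dullard*+/- embryo. The ranges overlapped, although each spot position was higher in the *Dullard*-/- embryo, by 0.03 to 0.13. Its log2 fold change was 0.09 ± 0.04, and without scaling between the arrays it was -0.02. *Apoe* (NM_009696), a ligand of lipoprotein receptors, is also spotted 10 times. It had levels of 80.7 to 90.8 (median 84.7) in the *Dullard*-/- embryo and 78.1 to 91.3 (median 83.9) in the *Dullard*+/- embryo. Here 7 of the 10 spots were higher and 3 lower, and the log2 fold change of 0.02 ± 0.04 lay inside the SD of single spots. Its sign was the opposite under quantile normalization (-0.04), loess (-0.03) and no scaling (-0.09).

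*Apoa4* (NM_007468), an apolipoprotein of lipid-absorbing epithelia, had 1 spot with a level of 2.91 in the *Dullard*-/- embryo, against 3.55 in the *Dullard*+/- embryo. It was 1.22-fold lower (-0.29 ± 0.05), and 2.63% of the brightest 25% of genes were at least as far below 0. *Apob* (NM_009693) encodes the large protein around which each very-low-density lipoprotein particle is built. It has a pair of probes. The dimmer one had a level of 3.84 in the *Dullard*-/- embryo, against 4.53 in the *Dullard*+/- embryo (log2 fold change -0.24), and the brighter one 25.6 in the *Dullard*-/- embryo, against 26.9 in the *Dullard*+/- embryo (-0.07). Both were lower in the *Dullard*-/- embryo, by unequal amounts that differ by 0.16, which is the SD between probes of bright genes. Their mean was -0.15 ± 0.03, and 10.4% of the brightest 25% of genes were at least as far below 0.

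*Apoa1* and *Apoa4* are neighbours in 1 gene cluster, in the order *Apoa1*, *Apoc3*, *Apoa4*, *Apoa5*. The log2 fold changes along it were 0.09 ± 0.04, 0.01 ± 0.08, -0.29 ± 0.05 and 0.11 ± 0.20, with *Apoc3* and *Apoa5* inside their errors and *Apoa1* at -0.02 without scaling. *Apoa5* was dim, at 28.2 in the *Dullard*-/- embryo, against 28.3 in the *Dullard*+/- embryo. *Apoe* lies beside *Apoc1* and *Apoc4*. *Apoc1*, which modulates lipoprotein metabolism, had a level of 6.31 in the *Dullard*-/- embryo, against 7.14 in the *Dullard*+/- embryo (-0.18 ± 0.05), and *Apoc4* was at 0.16 ± 0.12.

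The uptake receptor gave the largest difference of the set, on 1 of its probes only. *Cubn* (NM_001081084) encodes cubilin, which binds many ligands, among them the vitamin B12 carrier complex and apolipoprotein A-I. The signal of its first probe was 1163 in the *Dullard*-/- embryo, against 1909 in the *Dullard*+/- embryo. On the scaled levels, 4.40 in the *Dullard*-/- embryo, against 6.67 in the *Dullard*+/- embryo, this is 1.52-fold lower (-0.60). The second probe had 7.79 in the *Dullard*-/- embryo, against 8.27 in the *Dullard*+/- embryo, 1.06-fold lower (-0.09). The probes point the same way and differ by 0.52, far beyond the error of the spots, so the mean of -0.34 ± 0.03 stands for neither of them. Of 3136 genes with a pair of probes, 15.8% had probes at least this far apart, and 3.49% of the 802 such genes in the brightest 25% did. Where the probes lie in the long *Cubn* transcript is not known here, and each has 1 spot per array. By the mean, 1.14% of the brightest 25% of genes were at least as far below 0.

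*Amn* (NM_033603) encodes amnionless, the membrane partner without which cubilin does not reach the apical surface. Its level was 8.09 in the *Dullard*-/- embryo, against 7.56 in the *Dullard*+/- embryo, 1.07-fold higher (0.10 ± 0.05), and -0.02 without scaling. The receptor's partners thus had values on either side of 0, as neither *Cubn* probe was higher. *Hnf4a* (NM_008261), the nuclear receptor of the set, has 1 probe. Its level was 1.38 in the *Dullard*-/- embryo, against 1.42 in the *Dullard*+/- embryo, and the log2 fold change of -0.05 ± 0.06 lay inside the error of the spots. Of the genes with an HNF4-type match before the start site, *Afp* was higher and *Apob*, *Apoa4* and *Cubn* were lower than 0, beside this near-equal level of *Hnf4a*. Among the others searched, *Rbp4* had no such match and was also lower (-0.16), while *Apoa1*, *Apoe* and *Amn* were above 0. *Ttr* had no window to search. A tie between match and direction was not tested.

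**Figure D3:**
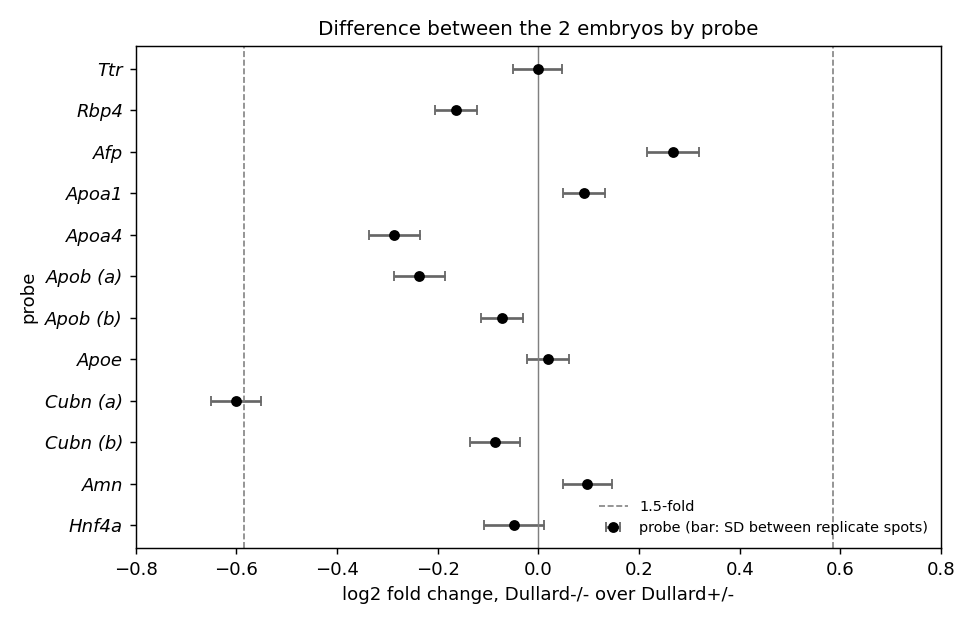
The 12 probes of the 10 genes (rows) and their log2 fold change on the horizontal axis, *Dullard*-/- over *Dullard*+/-, with bars of the SD between replicate spots at similar brightness and dashed lines at 1.5-fold. The first *Cubn* probe, at -0.60, is the only 1 outside the dashed lines, and the second lies at -0.09.

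The rest of the programme was read from lists of genes with related roles, 148 genes in all, of which 130 were well above background in both embryos. Of these, 69 were higher and 61 lower. The median was 0.01, and -0.11 without scaling between the arrays, which moved the median of all genes to -0.10. Past 1.5-fold there were 7 on the higher side and 1 on the lower, and 4 and 5 without scaling, beside 3.92% and 3.37% over all genes. A further 4 genes were well above background in the *Dullard*+/- embryo only and none in the *Dullard*-/- embryo only. The arrays as a whole leaned the same way, with 31242 spots well above background in *Dullard*+/- and 29310 in *Dullard*-/-. The share of such genes among all genes was not counted. *Hnf4g*, *Enpep* and *Zhx2*, among the 4, were dim, with bounds of only 1.21-fold, 1.16-fold and 1.13-fold. Of 17 other secreted proteins measured, 9 were higher and 8 lower (median 0.09, and -0.04 by the brightest probe of each gene). *Ahsg*, which encodes fetuin-A, was well above background in the *Dullard*+/- embryo only and at least 1.90-fold lower in *Dullard*-/-, a bound set by the dimmest *Dullard*-/- signal that still counts as well above background. Among genes measured in both embryos, the values farthest from 0 were of dim genes, *Serpina1d* at 0.70 ± 0.16, *Plg* (plasminogen) at -0.51 ± 0.14, *Gc* (the vitamin D carrier) at 0.39 ± 0.16 and *Ambp* at -0.39 ± 0.13. *Serpina1d* has near-identical gene copies, so its probe may read several of them.

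Of 9 other apolipoproteins and their editing enzyme, 4 were higher and 5 lower (median -0.18). *Apobec1*, which edits the *Apob* transcript in the mouse, read 13.5 in the *Dullard*-/- embryo, against 36.2 in the *Dullard*+/- embryo. It was 2.48-fold lower (-1.31 ± 0.22) on 1 dim probe. *Clu*, an extracellular chaperone, was at -0.56 ± 0.09, *Apod* at -0.23 ± 0.09 and *Apoa2*, a second protein of high-density lipoprotein, at -0.20 ± 0.04. With normexp background correction on the median signals of the spots, none of the genes of these lists was past 1.5-fold on the lower side and 4 were on the higher.

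Genes that load lipid onto *Apob* and absorb it were at a median of -0.02, with 12 of 26 higher and 14 lower. *Mttp*, the microsomal transfer protein that lipidates *Apob*, was at -0.05 ± 0.05. The largest values were *Abca1* (0.73 ± 0.09), which exports cholesterol to *Apoa1*, *Tm6sf2* (-0.46 ± 0.19, on a dim probe), *Mogat2* (0.27 ± 0.04) and *Dgat1* (0.26 ± 0.08), the last pair being enzymes of triglyceride synthesis. *Abca1* read 119 in the *Dullard*-/- embryo, against 77.7 in the *Dullard*+/- embryo.

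All 35 uptake partners were measured, 19 higher and 16 lower, with a median of 0.03 and none past 1.5-fold. *Lrp2* encodes megalin, the receptor that works beside cubilin, and was at 0.16 ± 0.05. *Dab2*, the adaptor that links these receptors to clathrin, had a level of 52.2 in the *Dullard*-/- embryo, against 60.6 in the *Dullard*+/- embryo (-0.21 ± 0.04). The largest values were of *Fcgrt*, the neonatal Fc receptor, at 0.54 ± 0.20, and *Stra6*, the receptor for *Rbp4*, at -0.52 ± 0.22, both on dim probes. Next were *Cd320*, the cellular receptor for transcobalamin, at -0.43 ± 0.10, and *Ap2b1*, a clathrin adaptor subunit, at -0.41 ± 0.09. The pair of *Cd320* probes differed, at -0.87 and 0.01.

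Of 25 other genes listed as regulators and measured, 14 were higher and 11 lower (median 0.05). At least 1.5-fold higher were 4, beside 3.92% of all genes. The list also holds the brush border gene *Vil1*, whose own value (0.05 ± 0.08) is the median. *Vil1* is counted in the brush border list below as well. *Gata4* and *Gata6*, which act in endoderm and are also made in mesoderm, were 1.56-fold (0.64 ± 0.05) and 1.60-fold (0.68 ± 0.06) higher. *Gata4* had a level of 6.87 in the *Dullard*-/- embryo, against 4.41 in the *Dullard*+/- embryo, and *Gata6* had 2.24 in the *Dullard*-/- embryo, against 1.40 in the *Dullard*+/- embryo. *Foxa2*, which is also made in the definitive endoderm and the axial mesoderm, was 1.55-fold higher (0.63 ± 0.06), and *Ppargc1a*, a metabolic coactivator, was at 0.84 ± 0.20 on a dim probe. *Foxa1* (0.00 ± 0.08) was near 0 like *Hnf4a*. Of 19 epithelial and brush border genes, 12 were higher and 7 lower (median 0.05). The largest values were *Tdgf1*, which the epiblast makes, at 0.87 ± 0.04, *Krt8* at -0.48 ± 0.06, *Pdzk1* at -0.33 ± 0.04 and *Dpp4* at 0.30 ± 0.06.

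**Figure D4:**
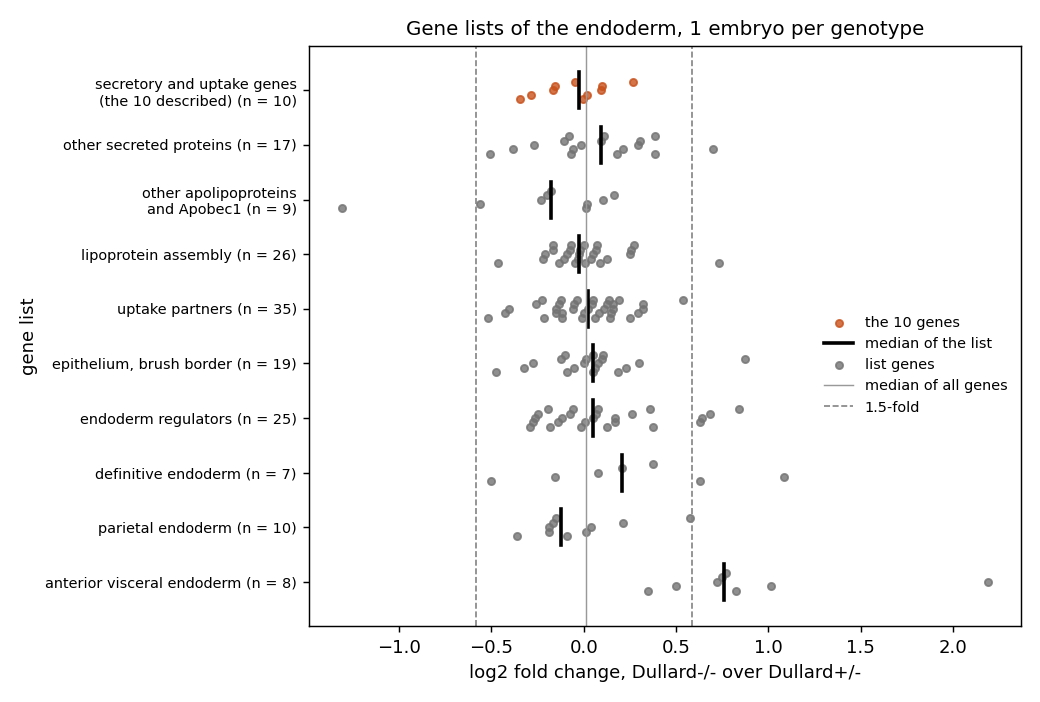
Measured genes by list (rows, with the number measured) and their log2 fold change on the horizontal axis, *Dullard*-/- over *Dullard*+/-, with black bars at list medians and dashed lines at 1.5-fold. The 10 secretory and uptake genes lie between -0.34 and 0.27 and the anterior visceral endoderm genes between 0.35 and 2.19.

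Markers of other cells that a whole embryo could hold stand beside these values. Sums of levels below run over the genes of a list well above background in both embryos. All 8 genes listed for the anterior visceral endoderm, a signalling population, were higher in the *Dullard*-/- embryo. Of these, 6 were at least 1.5-fold higher, beside 3.92% of all genes, and the list median was 0.76. Among the 6, *Cer1*, *Otx2* and *Sfrp5* are in the brightest 25% of genes, where 0.704% were at least 1.5-fold higher. *Lefty1*, *Fzd5* and *Hhex* are dimmer, so that share does not apply to them. Several of the 8 genes, among them *Lefty1*, *Lhx1*, *Otx2*, *Dkk1* and *Cer1*, are also made in other tissues of the embryo at this stage. A change of the visceral endoderm itself thus cannot be read from these genes. The study itself followed some of these genes on these arrays, so the list is not an independent choice. The values ran from 0.35 for *Dkk1* to 2.19 for *Lefty1*, against 0.27 for *Afp*, the highest of the secretory and uptake genes. The signal of *Lefty1* was low, 90.2 in the *Dullard*-/- embryo, against 21.4 in the *Dullard*+/- embryo. The next highest value was 1.01, for *Sfrp5*. *Cer1*, a secreted antagonist, had a level of 32.2 in the *Dullard*-/- embryo, against 19.2 in the *Dullard*+/- embryo. The list summed to 59.5 in the *Dullard*-/- embryo, against 35.6 in the *Dullard*+/- embryo. This sum is mostly *Cer1* and *Otx2*, the latter with 14.1 in *Dullard*-/- and 7.96 in *Dullard*+/-. With 1 embryo per genotype the difference between the lists could not be tested.

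Of 7 definitive endoderm genes, 5 were higher and 2 lower (median 0.21), with a sum of 21.3 in the *Dullard*-/- embryo, against 15.7 in the *Dullard*+/- embryo. The sum is mostly *Trh* (11.2 in *Dullard*-/-, 9.67 in *Dullard*+/-) and *Cxcr4* (5.85 in *Dullard*-/-, 2.75 in *Dullard*+/-). *Cxcr4* was at 1.09 ± 0.05, *Foxa2* at 0.63 ± 0.06, *Cldn4* at -0.50 ± 0.08 and *Tmem176b* at -0.16 ± 0.13. *Pyy*, well above background in the *Dullard*+/- embryo only, was at least 1.47-fold lower in *Dullard*-/-. Its probe was dim, with 7.38 in *Dullard*-/- against 11.7 in *Dullard*+/-, and the bound leaves out the error of the spots. Of 10 parietal endoderm genes, 4 were higher and 6 lower (median -0.12), with a sum of 24.9 in the *Dullard*-/- embryo, against 25.7 in the *Dullard*+/- embryo, and *Plat* was at least 2.85-fold lower. These lists thus held genes on both sides of 0.

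Of 6 epiblast genes, 4 were higher and 2 lower (median 0.08). Their sum, 641 in the *Dullard*-/- embryo, against 596 in the *Dullard*+/- embryo, is mostly the *Nanog* probe, with 567 in *Dullard*-/- and 535 in *Dullard*+/-. *Fgf5* was at 0.89 ± 0.04 and *Sox2* at 0.44 ± 0.06, while *Pou5f1* was at -0.06 ± 0.04. Of 7 trophoblast genes, 3 were higher and 4 lower (median -0.08). Farthest from 0 were *Prl3d1* at 1.07 ± 0.21 on a dim probe, *Ascl2* at -0.74 ± 0.09, *Plac1* at -0.61 ± 0.09 and *Esrrb* at 0.51 ± 0.05. The trophoblast sum was 8.91 in the *Dullard*-/- embryo, against 8.28 in the *Dullard*+/- embryo. Its largest rise in level was that of *Esrrb*, 3.35 in *Dullard*-/- against 2.35 in *Dullard*+/-. The 4 lower genes were *Ascl2*, *Plac1*, *Hand1* and *Elf5*, so the sum does not stand for the list.

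Of 6 decidua genes, 5 were higher and 1 lower (median 0.18), with *Igfbp1* at 0.72 ± 0.11. The sum, 4.05 in the *Dullard*-/- embryo, against 3.98 in the *Dullard*+/- embryo, is mostly *Bmp2*, which the embryo also makes (-0.06 ± 0.05), and *Prl8a2* and *Dcn* were not well above background in either embryo. Macrophages can also make *Apoe*. Of their 7 genes, 4 were well above background in both embryos, 3 higher and 1 lower (median 0.11). Their sum, 2.60 in the *Dullard*-/- embryo, against 2.44 in the *Dullard*+/- embryo, is mostly *Csf1r* (0.09 ± 0.06). *Aif1* and *Adgre1* were well above background in the *Dullard*+/- embryo only, and dim. They read 4.67 and 4.34 in *Dullard*-/-, against 8.11 and 5.06 in *Dullard*+/-. *Cd68* had no named probe. The adult globin genes *Hbb-bt* and *Hbb-bs* were listed for maternal blood. Their signals were 2.38 and 1.48 in the *Dullard*-/- embryo, not well above background, against 56.5 and 23.1 in the *Dullard*+/- embryo. They were at least 7.19-fold and 2.93-fold lower in *Dullard*-/- than in *Dullard*+/-. *Alas2* and *Slc4a1*, also listed for maternal blood, were measured in both embryos and lay on either side of 0, at -0.61 ± 0.14 and 0.13 ± 0.20. Whether the transcripts listed for maternal blood came from the mother or from the embryo cannot be told from whole-embryo RNA. The part of any of the listed cell types in the values of the 10 genes was not tested.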

How the data were processed

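RNA of 1 *Dullard*-/- and 1 *Dullard*+/- embryo was measured on 1 Agilent single-colour (Cy3) array each, on the same slide and in the same scan, so no batch could be fitted. The labels and the study's methods give different amplification kits and RNA inputs. The authors deposited the scanner output, whose spot intensity values were background-subtracted by Agilent Feature Extraction 10.10 (from the submitters' processing notes), and a table of processed intensity values that equals those signals times a constant per array (5.20 for *Dullard*-/-, 4.91 for *Dullard*+/-). The sources used here do not say what set the constants.

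From the scanner files, the processed signal was divided by each array's 75th percentile (non-control spots) and log2 taken. The 206 spots marked as outliers on either array were left out, none of them of the 10 genes. Spots were averaged by probe, and probes by gene where well above background in both embryos. A gene well above background in 1 embryo only gives a bound, which leaves out the error of the spots. RefSeq accessions named 30235 spots through a table of the GRCm38.p6 assembly and left 12785 unnamed. The array design is of build mm9, so that table was used for the order of neighbouring genes but not for positions of probes. The spot error pools the 40 replicated probes nearest in signal. Steps were tested on simulated arrays. No test across embryos was possible. Some items are not reported here.

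The 10 genes and all lists were chosen with earlier results of these data known. The text names every one of the 10, *Dullard*, in each list of related roles the up to 4 genes measured in both embryos that lie farthest from 0, and defining genes of cell types. Other genes named (*Alb*, *Mttp*, *Lrp2*, *Dab2*, *Foxa1*, *Ahsg*, the gene neighbours and the genes picked within cell type lists) were chosen after their values were seen. As alternatives, the arrays were quantile-normalized, fitted with loess (span 0.3), scaled to their medians or left unscaled. Others were normexp (offset 50) on median signals, dim probes unfiltered, 1 brightest probe per gene, folds averaged on the linear scale, outlier spots kept and the processed table. Python 3.11.15, numpy 2.4.6, pandas 2.3.3, matplotlib 3.10.9, R 4.3.3 and limma 3.58.1 were used.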

Additional observations from a re-analysis of the deposited data

How the results depend on the processing

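No paired analysis was possible because each genotype has 1 array. Under the 10 alternatives none of the 10 genes passed 1.5-fold in either direction, and 76 of 100 values moved by less than the error of the spots. The cause of the other shifts was not tested, apart from what the settings do by construction.

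Without scaling between the arrays, the median of all genes moved to -0.10, and all values moved with it: *Afp* 0.15, *Amn* -0.016, *Apoa1* -0.022, *Apoa4* -0.40, *Apob* -0.27, *Apoe* -0.094, *Cubn* -0.46, *Hnf4a* -0.16, *Rbp4* -0.28 and *Ttr* -0.11, with a median of -0.14 for the 10 and 1 gene higher and 9 lower, beside 4 and 6. The lists then had 4 genes at least 1.5-fold higher and 5 lower, with a median of -0.11, and of all genes past 1.5-fold 33.2% were higher (388 higher, 782 lower), beside 53.8% (579 higher, 498 lower). With normexp on median signals, which changes both the background correction and the spot signal, *Afp* was 0.20, *Apoa1* 0.042, *Apoa4* -0.20, *Rbp4* -0.10 and *Ttr* -0.062, the lists had 4 genes higher and 0 lower past 1.5-fold, and 94 of all genes were higher and 33 lower (74.0% higher). With quantile normalization *Apoa1* was 0.045, *Apob* -0.20, *Apoe* -0.044 and *Rbp4* -0.21, with loess *Apoe* was -0.034, and scaled to the median *Apob* was -0.12 and *Cubn* -0.31. By the brightest probe *Apob* was -0.072 and *Cubn* -0.086. Without the filter on dim probes the lists had 5 genes at least 1.5-fold lower and all genes 1215 higher and 1737 lower (41.2% higher), and with the processed table the lists had 2 lower.

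The sign changed for *Amn* and *Apoa1* without scaling, for *Apoe* under no scaling, quantile normalization, loess and the processed table, and for *Ttr* when scaled to the median. *Afp*, *Apoa4*, *Apob*, *Cubn*, *Hnf4a* and *Rbp4* kept their sign in all 10. Without embryo replicates, a difference below the spread between embryos cannot be told from it.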
